A study of Homo sapiens with 39 samples.

Results

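The 42 genes described here act in G2, mitosis and cytokinesis and were taken by name, out of 23710 gene symbols in each of 5 tables. The list was proposed with earlier results of these data known, so it was given no test as a set. All 42 were present in all 5 tables. They were ordered by role into 8 groups: the mitotic cyclins with CDK1 and its activators, mitotic kinases, the spindle assembly checkpoint, centromere and outer kinetochore, anaphase promotion and sister separation, spindle motors and microtubule proteins, the midzone with cytokinesis, and a last group of chromosome structure with the transcription factor FOXM1.

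RNA-seq was made from 39 libraries in 9 groups of 2 human cell lines, hTERT RPE1, retinal pigment epithelial cells immortalised with telomerase, and CHP-134, a neuroblastoma line. RPE1 wild type cells (9 libraries) were set against RPE1 cells with a TRIM37 knockout (9 libraries, with no clone named), both untreated. CHP-134 wild type cells (3 libraries) were set against each of 2 untreated TRIM37 mutant clones, clone 1 and clone 2 (3 libraries each), which the labels call a partial knockout. RPE1 cells carrying a doxycycline-inducible TRIM37 transgene, clone 4 and clone 5, were set without and with 1 µM doxycycline for 24 h (3 libraries in each of these 4 groups). Each CHP-134 mutant and each inducible line was a single clone, and no cells without the transgene were given doxycycline, so an effect of the drug and an effect of TRIM37 cannot be told apart. The RPE1 wild type libraries are numbered as 3 sets of 3 and the knockout libraries from 1 to 9, and no label says whether libraries came from separate cultures, so the q values below may measure technical spread only.

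The files hold the authors' comparisons and no value for a single library. For each gene they list a mean count, a log2 fold change, the standard error (SE) of that value, a q value, which is a p adjusted over all tested genes, and a status. For calls and shares a gene was used where the status was OK, and it was called higher or lower where q was under 0.05. The tables do not name the numerator, so the direction was set by TRIM37 itself, whose log2 fold change by the authors' deposited tables was -1.95 in the RPE1 knockout, -1.66 and -1.75 in CHP-134 clones 1 and 2, and 3.19 and 2.64 in the inducible clones 4 and 5. Of 8 genes chosen to mark RPE1 cells, none was listed as low in the RPE1 tables and 3 were low in the CHP-134 tables, where LAMB1 and VIM kept mean counts of 9230 or more by the authors' deposited tables. Of 11 neuroblastoma markers, 9 or 10 were low in the RPE1 tables and 2 were low in the CHP-134 tables. All 5 markers of other cell types were low in the RPE1 tables and 3 of 5 in the CHP-134 tables.

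Cells prepare for division in G2 by building up cyclin B, which binds the kinase CDK1 and, once CDC25 phosphatases remove inhibitory phosphates, drives entry into mitosis. Kinetochores then attach chromosomes to spindle microtubules, and the spindle assembly checkpoint holds back the anaphase-promoting complex until attachment is complete. TRIM37 is a ubiquitin ligase known for restraining the assembly of extra microtubule-organising centres. Transcripts of these genes rise together late in the cell cycle under FOXM1 and the MuvB complex, which bind a cell cycle genes homology region (CHR), often near CCAAT boxes bound by NF-Y, and they fall when p53 raises CDKN1A, which encodes the CDK inhibitor p21. In RNA from whole cultures, fewer cells in G2 and mitosis and less RNA per cell cannot be told apart.

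Many of the members' promoters carry these letters. RefSeq (GRCh38.p14) gave windows from 250 bases before to 50 after the transcript start for 35 of the 42 members, 45 windows in all; no window was matched for AURKA, BUB3, TTK, TPX2, FOXM1, UBE2C and BIRC5. Searched on both strands, the CHR letters TTTGAA or TTCGAA were present in 30 of the 45 windows (66.7%), against 16.4% of all 35116 windows. CCAAT was present in 34 of 45 (75.6%), against 34.6% of all windows, and both motifs stood in the same window in 25 of 45 (55.6%), against 6.38%. A core E2F motif, TTCCCGC or TTGGCGC, was present in 9 of 45 (20%), against 9.23%. Counted by gene against the other genes usable in any comparison, the CHR letters stood in 77.1% of members against 15.5%, CCAAT in 82.9% against 42.8%, both in 65.7% against 6.32%, and an E2F core in 20% against 17.7%. A match of letters describes the window and does not show binding. In the 150 bases just before the start, CCNB1 had 2 CCAAT boxes and no CHR letters. AURKB, with 2 listed starts, had neither motif before the first and CCAAT at -129 from the second. These 150 bases are printed for 6 other members, picked as examples, 5′ to 3′ on the strand of the gene. CCAAT, or its reverse complement ATTGG, and CHR letters are in capitals.
CCNB2 (chr15:59104996-59105145, plus strand): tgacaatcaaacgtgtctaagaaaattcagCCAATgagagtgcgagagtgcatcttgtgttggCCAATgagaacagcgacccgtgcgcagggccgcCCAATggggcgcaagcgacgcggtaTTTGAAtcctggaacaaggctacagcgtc
PLK1 (chr16:23678739-23678888, plus strand): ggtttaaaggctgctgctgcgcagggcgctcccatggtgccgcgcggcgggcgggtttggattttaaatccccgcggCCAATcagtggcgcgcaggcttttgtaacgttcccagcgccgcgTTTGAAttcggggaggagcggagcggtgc
CDC20 (chr1:43358831-43358980, plus strand): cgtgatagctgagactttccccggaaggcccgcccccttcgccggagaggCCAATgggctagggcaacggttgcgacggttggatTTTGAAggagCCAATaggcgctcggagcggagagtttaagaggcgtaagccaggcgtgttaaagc
BUB1 (chr2:110678064-110678213, minus strand): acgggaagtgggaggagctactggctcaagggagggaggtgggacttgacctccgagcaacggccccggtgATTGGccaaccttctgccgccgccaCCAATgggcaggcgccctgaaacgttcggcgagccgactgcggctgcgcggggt
ANLN (chr7:36389712-36389861, plus strand): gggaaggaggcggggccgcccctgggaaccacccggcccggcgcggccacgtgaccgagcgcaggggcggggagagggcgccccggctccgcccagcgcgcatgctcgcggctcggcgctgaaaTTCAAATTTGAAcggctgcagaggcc
KIF20A (chr5:138178962-138179111, plus strand): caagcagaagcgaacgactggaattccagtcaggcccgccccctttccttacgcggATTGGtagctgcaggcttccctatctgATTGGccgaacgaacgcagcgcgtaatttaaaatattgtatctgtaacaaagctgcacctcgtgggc

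CCNB2, PLK1 and CDC20 show the arrangement in full, with CCAAT boxes upstream of the CHR letters or around them. BUB1 has 2 CCAAT boxes and its TTCGAA lies just inside the transcript, past the printed stretch. ANLN has TTTGAA on each strand and no CCAAT in its window, and KIF20A has 2 CCAAT boxes and no CHR letters in its window. By the authors' deposited tables, members with both motifs and the other members with a window were as follows, with no test made. In CHP-134 clone 1, 4 of the 23 with both were called lower (median log2 fold change -0.10), and 7 of the other 12 (median -0.15). Of all usable genes, 9.07% were called lower there. In clone 2, 11 of 23 were called lower and 4 higher (median -0.16), and 8 of the other 12 lower and 0 higher (median -0.22). Of all usable genes, 24.2% were called lower and 22% higher in clone 2. Members whose CHR has another spelling than the 2 searched would stand among the other 12. In inducible clone 5 the medians were 0.094 and 0.098.

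**Figure D1:**
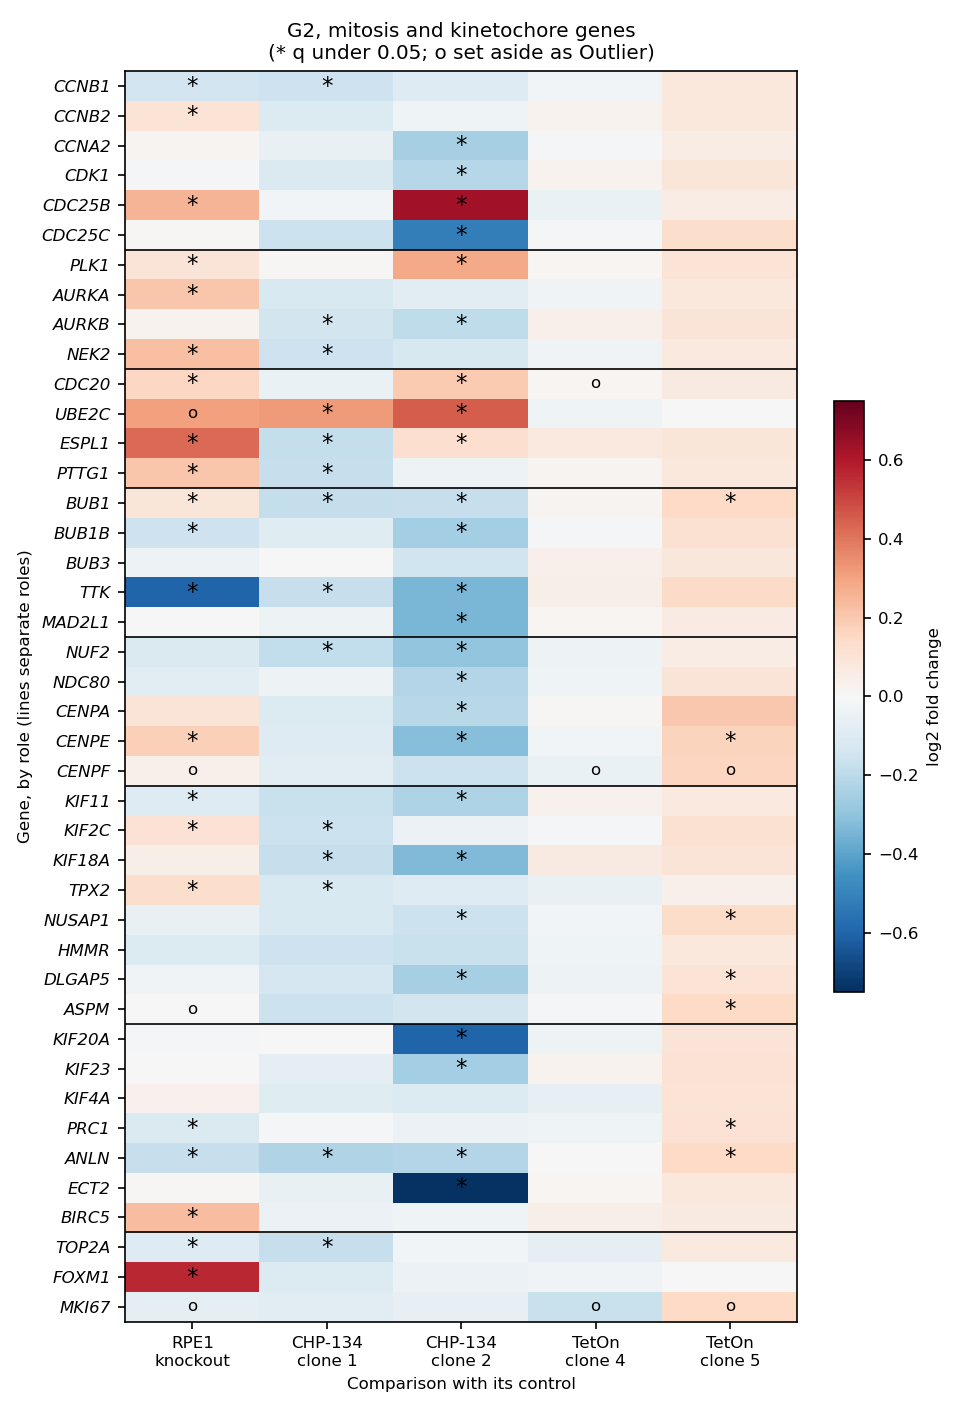
Log2 fold change of the 42 members (rows, by role) in the 5 comparisons of the authors' deposited tables (columns), as colour from lower to higher. An asterisk marks q under 0.05 and an o marks a gene set aside as an outlier; lower values fill most of both CHP-134 columns, the RPE1 knockout column holds calls of both signs, and inducible clone 4 holds no call.

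In both CHP-134 mutant clones more of these transcripts were called lower than higher against wild type cells, mostly by small amounts. In the authors' deposited table of clone 1, 13 members were called lower and 1 higher out of 42 usable, where 9.07% of all usable genes were called lower and 9.6% higher. In clone 2, 20 were called lower and 5 higher out of 42, where 24.2% of all usable genes were called lower and 22% higher. Among genes whose mean count was 1000 or more, to which 41 of the 42 members belong, 13.6% were called lower in clone 1 and 31.2% in clone 2. The median member fell by 6.99% in clone 1 and fell by 10.5% in clone 2, and 38 and 37 of the 42 lay below 0, while the medians of all genes were -0.0068 and -0.012 on the log2 scale. Among genes whose mean count was 1000 or more the medians were -0.033 and -0.042, against -0.10 and -0.16 for the 41 members at that level. Dividing the test statistics by their central spread, the scaled median absolute deviation over all genes, left 0 calls in clone 1 and 3 in clone 2: CDC25B, KIF20A and ECT2. The clones were compared with the same 3 wild type libraries, so their values are given side by side and not as independent repeats. CDKN1A rose in both, with log2 fold changes of 1.08 (SE 0.0764) and 1.74 (SE 0.0862) by the authors' deposited tables, and its part in the members' values was not tested.

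Of the 6 cyclin, CDK1 and CDC25 genes, 1 was called lower in clone 1, and in clone 2, 3 were called lower and 1 higher. The shares of all usable genes called lower were 9.07% in clone 1 and 24.2% in clone 2, where 22% were called higher. In clone 1 only CCNB1, the cyclin B1 gene, was called among these 6, at -0.16 (SE 0.0387, q = 0.000955) by the authors' deposited table, and in clone 2 it was -0.097 (SE 0.0427, q = 0.051). In clone 2 CCNA2, which encodes cyclin A2, was -0.25 (SE 0.0831) and CDK1 was -0.22 (SE 0.0611) by the authors' deposited table, both called lower. The phosphatases that activate CDK1 moved in opposite directions there: CDC25C was -0.52 (SE 0.0657, q = 5.34e-14) and CDC25B was 0.63 (SE 0.0435, q = 4.2e-45) by the authors' deposited table. In clone 1 neither was called, at -0.16 (SE 0.0628) and -0.019 (SE 0.0387) by the authors' deposited table.

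In clone 2, 4 of 5 checkpoint genes and 4 of 5 centromere and kinetochore genes were called lower. In clone 1 these were 2 of 5 and 1 of 5. Of all usable genes, 24.2% were called lower in clone 2 and 9.07% in clone 1. TTK, the kinase that starts checkpoint signalling, was -0.17 (SE 0.0567, q = 0.0199) in clone 1 and -0.34 (SE 0.0585, q = 4.51e-08) in clone 2 by the authors' deposited tables. BUB1, a checkpoint kinase at the kinetochore, was -0.18 (SE 0.0419, q = 0.000382) and -0.17 (SE 0.0491, q = 0.0016) in the same order in the authors' deposited tables. In clone 2 the checkpoint genes BUB1B and MAD2L1 were also called lower, at -0.25 (SE 0.0652) and -0.34 (SE 0.103) by the authors' deposited table, while BUB3 was -0.15 (SE 0.0658, q = 0.0523). NUF2 and NDC80 encode partners in the complex that binds microtubule ends. NUF2 was called lower in both clones, at -0.18 (SE 0.0666) and -0.30 (SE 0.0885) by the authors' deposited tables, and NDC80 in clone 2, at -0.22 (SE 0.0573, q = 0.000539). CENPE, a kinetochore motor, and CENPA, the centromeric histone, were called lower in clone 2, at -0.32 (SE 0.102) and -0.21 (SE 0.0748) by the authors' deposited table, and CENPF was -0.16 (SE 0.0835, q = 0.106).

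Among the kinases, AURKB, the catalytic part of the chromosomal passenger complex, was called lower in both clones, at -0.14 (SE 0.0411) and -0.19 (SE 0.062) by the authors' deposited tables. NEK2, a centrosomal kinase, was called lower in clone 1 at -0.16 (SE 0.0559) by the authors' deposited table, and was -0.12 (SE 0.0728, q = 0.156) in clone 2. PLK1, a kinase of mitotic entry, went the other way in clone 2, where it was 0.29 (SE 0.0422, q = 2.52e-10) by the authors' deposited table, against 0.0086 (SE 0.0447) in clone 1. The 8 spindle genes all lay below 0 in both clones. KIF18A, a motor that limits chromosome oscillation, was -0.18 (SE 0.0566) and -0.33 (SE 0.0735) by the authors' deposited tables, called in both. KIF2C, a microtubule depolymerase, and TPX2, an activator of AURKA, were called lower in clone 1 at -0.16 (SE 0.0549) and -0.11 (SE 0.0405) by the authors' deposited table. KIF11, the motor that separates spindle poles, with DLGAP5 and NUSAP1, which stabilise spindle microtubules, were called lower in clone 2 at -0.23 (SE 0.0853), -0.25 (SE 0.0695) and -0.16 (SE 0.0684) by the authors' deposited table.

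The largest falls among cytokinesis genes were those of ANLN in clone 1 and of ECT2 and KIF20A in clone 2. ANLN, the anillin gene of the contractile ring, was -0.22 (SE 0.0505, q = 0.000218) in clone 1 and -0.22 (SE 0.0555, q = 0.000293) in clone 2 by the authors' deposited tables. In clone 2 ECT2, which activates RhoA at the midzone, was -0.74 (SE 0.0699, q = 1.21e-24) and KIF20A, a midzone motor, was -0.60 (SE 0.0349, q printed as 0) by the authors' deposited table. As percentages these fell by 40.3% and dropped by 34% against wild type. KIF23, the motor of centralspindlin, was -0.26 (SE 0.0567) in clone 2 by the authors' deposited table. TOP2A, the topoisomerase that decatenates sister chromatids, was -0.17 (SE 0.0365, q = 5.33e-05) in clone 1 and -0.023 (SE 0.058, q = 0.776) in clone 2 by the authors' deposited tables. FOXM1 itself was called in neither clone, at -0.10 (SE 0.0647) and -0.043 (SE 0.0435) by the authors' deposited tables, nor was MKI67, the Ki-67 gene, at -0.078 (SE 0.0473) and -0.061 (SE 0.074).

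Of the 4 genes that act at anaphase, 3 were called higher in clone 2 and 1 in clone 1, where 2 were called lower. Among all usable genes 22% were called higher in clone 2, and in clone 1 9.6% were called higher and 9.07% lower. UBE2C, the ubiquitin-conjugating enzyme of the anaphase-promoting complex, was called higher in both clones, at 0.32 (SE 0.0953, q = 0.00789) and 0.46 (SE 0.088, q = 1.75e-06) by the authors' deposited tables. CDC20, its activator, was -0.049 (SE 0.0693, q = 0.688) in clone 1 and 0.20 (SE 0.0581, q = 0.00222) in clone 2 by the authors' deposited tables. ESPL1, the separase that cuts cohesin, was called lower in clone 1 at -0.18 (SE 0.0506) and higher in clone 2 at 0.13 (SE 0.0529) by the authors' deposited tables, the only member with opposite calls in the 2 clones. PTTG1, securin, which holds separase inactive, was -0.17 (SE 0.0601, q = 0.0289) in clone 1 and -0.040 (SE 0.0672, q = 0.651) in clone 2 by the authors' deposited tables.

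**Figure D2:**
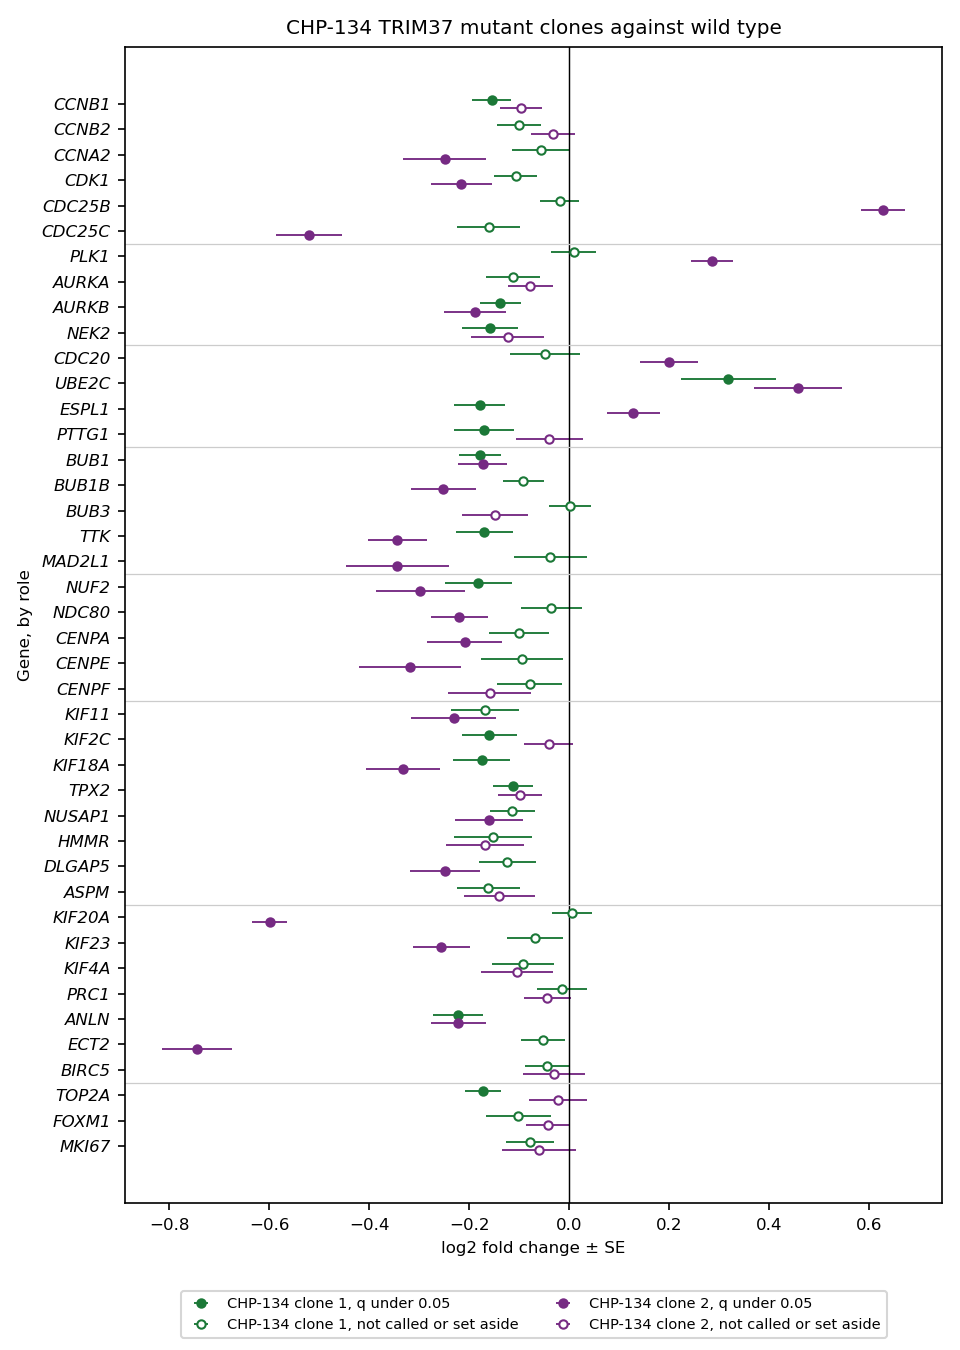
Log2 fold change of each member (rows, by role) against CHP-134 wild type on the horizontal axis, with the SE as bars, for clone 1 (green) and clone 2 (purple), from the authors' deposited tables; filled points have q under 0.05. Both clones share the same 3 wild type libraries; in clone 2 ECT2, KIF20A and CDC25C lie far to the left and CDC25B, UBE2C and PLK1 far to the right.

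The change differed between the clones for 7 of the 42 members, 4 higher and 3 lower in clone 2, where 20.5% of all genes differed, 9.29% higher and 11.2% lower. The test was a normal test of the difference of the authors' fold changes with Benjamini-Hochberg adjustment over all genes; it treats the shared wild type libraries as separate. Higher in clone 2 were CDC25B, by 0.65 (SE 0.0582, adjusted p = 1.25e-26), ESPL1, by 0.31 (SE 0.0732, adjusted p = 0.000322), PLK1, by 0.28 (SE 0.0615, adjusted p = 9.35e-05), and CDC20, by 0.25 (SE 0.0904, adjusted p = 0.0335). Lower in clone 2 were ECT2, with a difference of -0.69 (SE 0.0823, adjusted p = 2.65e-15), KIF20A, with -0.60 (SE 0.0526, adjusted p = 2.21e-28), and CDC25C, with -0.36 (SE 0.0909, adjusted p = 0.000786). Dividing the statistics by their central spread over all genes left CDC25B, KIF20A and ECT2.

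The 5 lowest members of clone 2 lay among neighbours that were low as well. KIF20A and CDC25C stand on chromosome 5 with CDC23, a subunit of the anaphase-promoting complex, between them. CDC23 was -0.56 (SE 0.0481) in clone 2 and -0.12 (SE 0.0483) in clone 1 by the authors' deposited tables. The 20 nearest genes that are no members had a median of -0.24 in clone 2, with 16 of 20 below 0, against 0.045 around KIF20A in clone 1. The fall was larger in some neighbours than in the members: ETF1 was -0.66 and HSPA9 was -0.71 in the authors' deposited table of clone 2. ECT2, on chromosome 3, had 20 of 20 neighbours below 0, with a median of -0.68 in clone 2 against -0.00025 in clone 1. MAD2L1 and TTK, each at -0.34 by the authors' deposited table, both had neighbours with a median of -0.28. Less the neighbours' median, KIF20A and CDC25C kept their calls at -0.36 and -0.28, ECT2 was -0.063 with adjusted p = 0.50, and MAD2L1 and TTK were -0.064 and no longer called. Over all members, 13 of the 25 calls of clone 2 and 8 of the 14 calls of clone 1 remained. With newly called members counted, 4 were then called higher and 15 lower in clone 2, and 1 higher and 9 lower in clone 1. KIF20A and CDC23 overlap by 74 bases and CDC25C and FAM53C by 799 bases, and whether reads were counted by strand is not given in the sources used here.

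**Figure D3:**
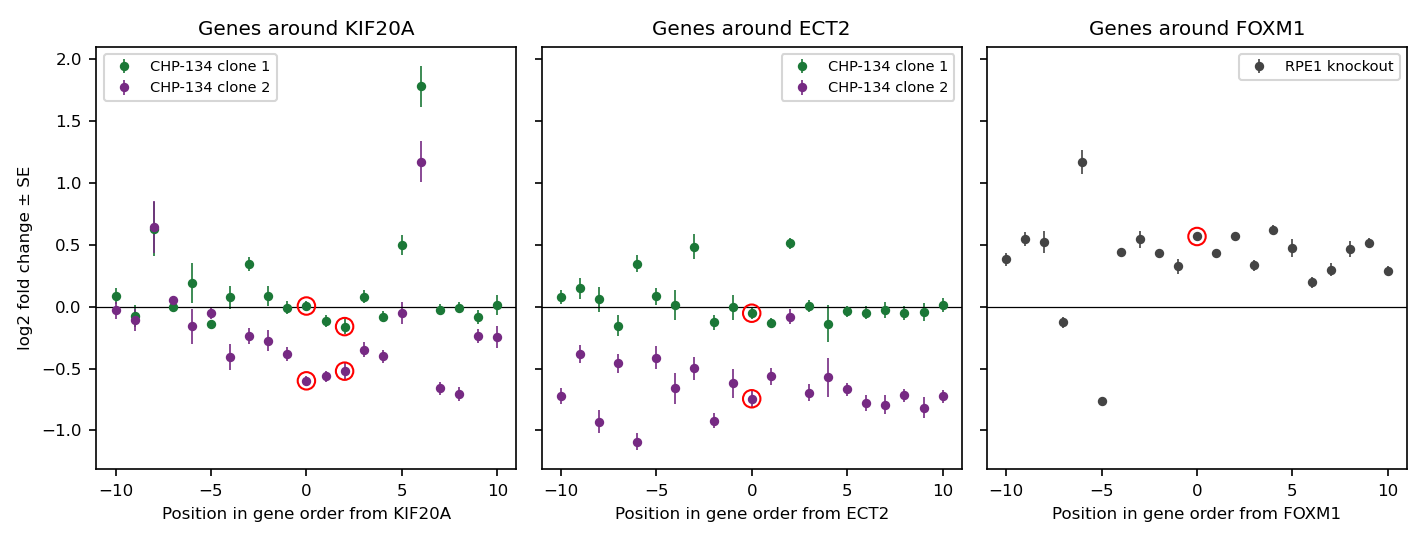
Log2 fold change with the SE as bars (vertical axis) of the 10 genes on each side, in gene order along the chromosome (horizontal axis), around KIF20A and ECT2 in CHP-134 clones 1 (green) and 2 (purple) and around FOXM1 in the RPE1 knockout, from the authors' deposited tables; members are circled. In clone 2 the genes around ECT2 all lie below 0 and most around KIF20A do, while clone 1 lies on both sides of 0, and most genes around FOXM1 lie above 0.

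Base composition also moved with the CHP-134 values. The members' transcripts had a median GC content of 42.9%, against 47.9% for all usable genes, and the Spearman correlation of log2 fold change with GC in clone 2 was 0.63 over the 42 members and 0.51 over all genes. The members called higher in clone 2 were at the rich end, from 50% for UBE2C to 59.3% for CDC25B. Other members in that range were not higher: AURKB (55.6%) was called lower, and FOXM1 (55.6%), BIRC5 (52.2%) and KIF2C (50.4%) were not called. With the trend of all genes on GC removed, 7 members were called lower and 1 higher in clone 1, and 6 lower and 4 higher in clone 2, where 8 of the 25 original calls remained: CDC25B, PLK1 and UBE2C higher, and CDC25C, AURKB, TTK, KIF20A and ECT2 lower. TOP2A was then newly called higher and FOXM1 lower in clone 2. The part of GC content in these values was not tested further.

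In the RPE1 knockout the members did not move one way. Of 38 usable members, 14 were called higher and 7 lower in the authors' deposited table, where 26.6% of all usable genes were called higher and 26.9% lower. Among genes whose mean count was 1000 or more, 31.7% were called higher and 30.2% lower. CENPF, MKI67, UBE2C and ASPM were set aside there as outliers. The median member was 0.015 on the log2 scale, a change of 1.02%, and 21 of 38 lay above 0. CDKN1A was 0.41 (SE 0.0275) by the authors' deposited table, and its part in the members' values was not tested.

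TTK had the largest fall and FOXM1 the largest rise. TTK was -0.60 (SE 0.049, q = 1.22e-33) by the authors' deposited table, so it fell by 34.2%, while its 20 neighbours had a median of -0.0082. Other checkpoint genes changed less and not alike: BUB1B, which encodes BubR1, was -0.15 (SE 0.0252, q = 5.41e-09) and BUB1 was 0.093 (SE 0.0331, q = 0.0114) by the authors' deposited table. BUB3 and MAD2L1 were not called, at -0.041 (SE 0.0285) and -0.0030 (SE 0.0332) by the authors' deposited table. FOXM1 was 0.57 (SE 0.0164) with q printed as 0, and ESPL1 was 0.43 (SE 0.0494, q = 4.89e-17) by the authors' deposited table. Both lie on chromosome 12, where 590 genes whose mean count was 100 or more had a median of 0.51 and 538 were called higher, against a median of -0.013 for the genes elsewhere. The neighbours of FOXM1 had a median of 0.44 and those of ESPL1 0.62. Less that median FOXM1 was 0.13 higher and still called, with adjusted p = 4.48e-14, and ESPL1 turned to -0.19 (adjusted p = 0.000243). FOXM1 also overlaps RHNO1 by 910 bases and ITFG2 by 2112 bases.

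All 3 usable anaphase genes and 3 of the 4 mitotic kinases were called higher, where 26.6% of all usable genes were. The 3 include ESPL1, which was -0.19 less the median of its neighbours. PTTG1 was 0.21 (SE 0.023, q = 6.36e-19) and CDC20 was 0.16 (SE 0.0292, q = 3.12e-07) by the authors' deposited table, and UBE2C was listed at 0.31 (SE 0.0608) but set aside. AURKA, the kinase of spindle poles, was 0.21 (SE 0.0335, q = 2.11e-09), NEK2 was 0.23 (SE 0.0433) and PLK1 was 0.096 (SE 0.0271) by the authors' deposited table, all called, while AURKB was 0.027 (SE 0.0395, q = 0.592). BIRC5, survivin, a partner of AURKB, was 0.23 (SE 0.0375, q = 5.1e-09) by the authors' deposited table. Among the cyclins CCNB1 and CCNB2 had opposite calls, at -0.15 (SE 0.0281, q = 9.51e-07) and 0.10 (SE 0.0309, q = 0.003) by the authors' deposited table, and CDC25B was 0.26 (SE 0.0309, q = 7.98e-16). At the kinetochore only CENPE was called, at 0.18 (SE 0.0448, q = 0.000238) by the authors' deposited table, with NUF2 at -0.11 (SE 0.052), NDC80 at -0.087 (SE 0.0477) and CENPA at 0.094 (SE 0.0477).

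Spindle and cytokinesis genes gave calls of both signs. TPX2 was 0.13 (SE 0.0254) and KIF2C 0.11 (SE 0.0316), both called higher, and KIF11 was called lower at -0.098 (SE 0.0319) by the authors' deposited table. ANLN was -0.17 (SE 0.0264, q = 4.37e-10), PRC1, which bundles midzone microtubules, was -0.11 (SE 0.0266, q = 0.000115), and TOP2A was -0.099 (SE 0.0255, q = 0.000314) by the authors' deposited table. Dividing the statistics by their central spread over all genes left calls for FOXM1 and TTK only among the 38.

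The change in RPE1 knockout cells was higher than in the CHP-134 clones for many members. Across 38 members usable in both, the RPE1 change was higher than that of clone 1 for 16 and lower for 1, where 17.6% of all genes were higher and 16.5% lower. Against clone 2 it was higher for 22 and lower for 3, where 24.2% were higher and 22.3% lower. The median difference of log2 fold changes was 0.10 and 0.21, against 0.011 and 0.0090 over all genes. TTK was lower in RPE1 against both clones, with differences of -0.43 (adjusted p = 8.87e-08) and -0.26 (adjusted p = 0.00226). CDC25B and PLK1 were lower in RPE1 than in clone 2, with differences of -0.37 (adjusted p = 3.92e-11) and -0.19 (adjusted p = 0.000615). PTTG1 was higher in RPE1 by 0.38 and 0.25, and NEK2 by 0.39 and 0.35, against clones 1 and 2. The line, the allele and the clone changed together here, and they cannot be told apart. Dividing by the central spread left FOXM1 and ESPL1 against clone 1 and FOXM1 and KIF20A against clone 2. FOXM1 and ESPL1 lie on chromosome 12, whose genes had a median of 0.51 in the RPE1 knockout. With chromosome medians removed, the ESPL1 difference against clone 2 turned to -0.27.

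**Figure D4:**
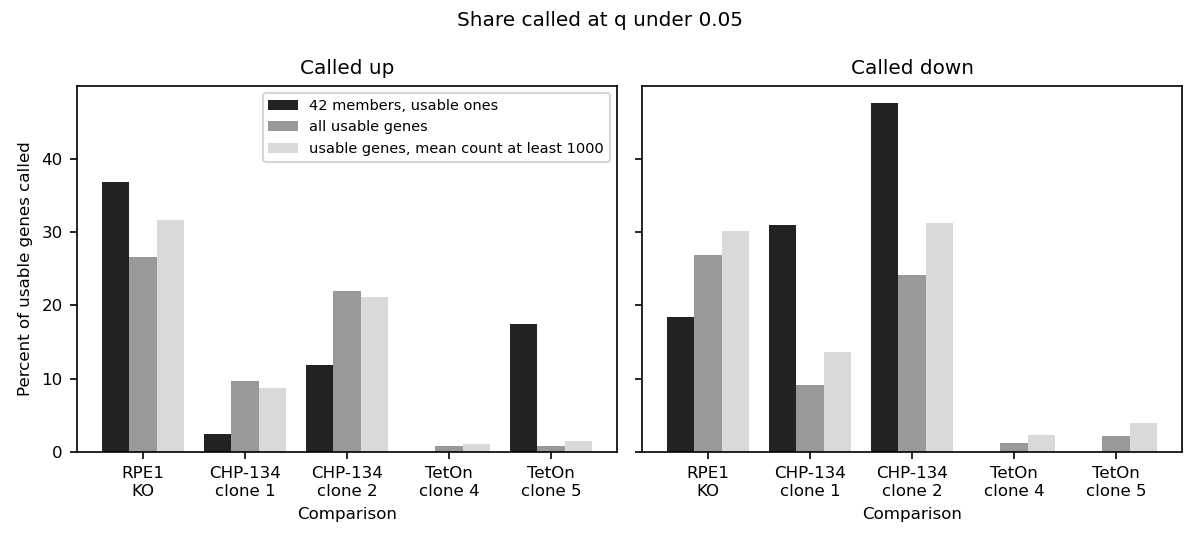
Percent of usable genes called higher (left) and lower (right) in each comparison of the authors' deposited tables, for the members (black), all usable genes (grey) and usable genes whose mean count was 1000 or more (light grey). The member bar is the tallest of the 3 for lower calls in both CHP-134 clones, and for higher calls in the RPE1 knockout and inducible clone 5.

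With doxycycline the changes of these genes were small. In inducible clone 4 none of 39 usable members was called in the authors' deposited table, where 0.716% of all usable genes were called higher and 1.23% lower; at an unadjusted p under 0.05, 0 were higher and 1 lower. That gene was TOP2A, at -0.070 (SE 0.0336, q = 0.446) by the authors' deposited table, and CDC20, CENPF and MKI67 were set aside as outliers. The 95% intervals of the 39 reached from -0.14 for CDC25C to 0.17 for ESPL1. In inducible clone 5, 7 of 40 were called higher and 0 lower in the authors' deposited table, where 0.795% of all usable genes were called higher and 2.17% lower, and 1.46% of genes whose mean count was 1000 or more were called higher. CENPF and MKI67 were set aside there too. Of the 40, 39 lay above 0, the median member was 6.58% higher, and 24 were higher at an unadjusted p under 0.05. Dividing the statistics by their central spread left 3 calls: BUB1, CENPE and ANLN.

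The called members of clone 5 were spread over 4 of the 8 roles. ANLN was 0.15 (SE 0.0291, q = 3.18e-05) by the authors' deposited table, against 0.0037 (SE 0.0397) in clone 4. BUB1 was 0.15 (SE 0.0381, q = 0.00621) and CENPE was 0.17 (SE 0.0451, q = 0.0119) by the authors' deposited table, against 0.020 (SE 0.0323) and -0.022 (SE 0.0461) in clone 4. ASPM, which acts at spindle poles, was 0.15 (SE 0.0434), NUSAP1 was 0.14 (SE 0.0393) and DLGAP5 was 0.10 (SE 0.0296) by the authors' deposited table of clone 5. PRC1 was 0.11 (SE 0.0327) by the authors' deposited table of clone 5, against -0.033 (SE 0.0211) in clone 4. The largest value, CENPA at 0.20 (SE 0.0723, q = 0.116) by the authors' deposited table, was not called. CDK1 and PLK1 were 0.091 (SE 0.0392, q = 0.301) and 0.10 (SE 0.041, q = 0.234), and TOP2A was 0.074 (SE 0.0254, q = 0.0953) by the authors' deposited table. ANLN and PRC1 were called lower in the RPE1 knockout and higher here, while BUB1 and CENPE were called higher in both.

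The inducible clones were not shown to differ for any member. None of 39 differences passed Benjamini-Hochberg adjustment of the normal test, where 0.221% of all genes did. The difference was above 0 for 39 of 39 members, with a median of 0.099, while 50.8% of all genes lay above 0 with a median of 0.0016, and 18 of 39 had an unadjusted p under 0.05. FOXM1 was near 0 in both, at -0.028 (SE 0.0344) and 0.0026 (SE 0.0296) by the authors' deposited tables. CDKN1A was -0.14 (SE 0.0319, q = 0.00108) in clone 5 and was set aside in clone 4, where it was listed at -0.16 (SE 0.0697) by the authors' deposited tables.

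**Figure D5:**
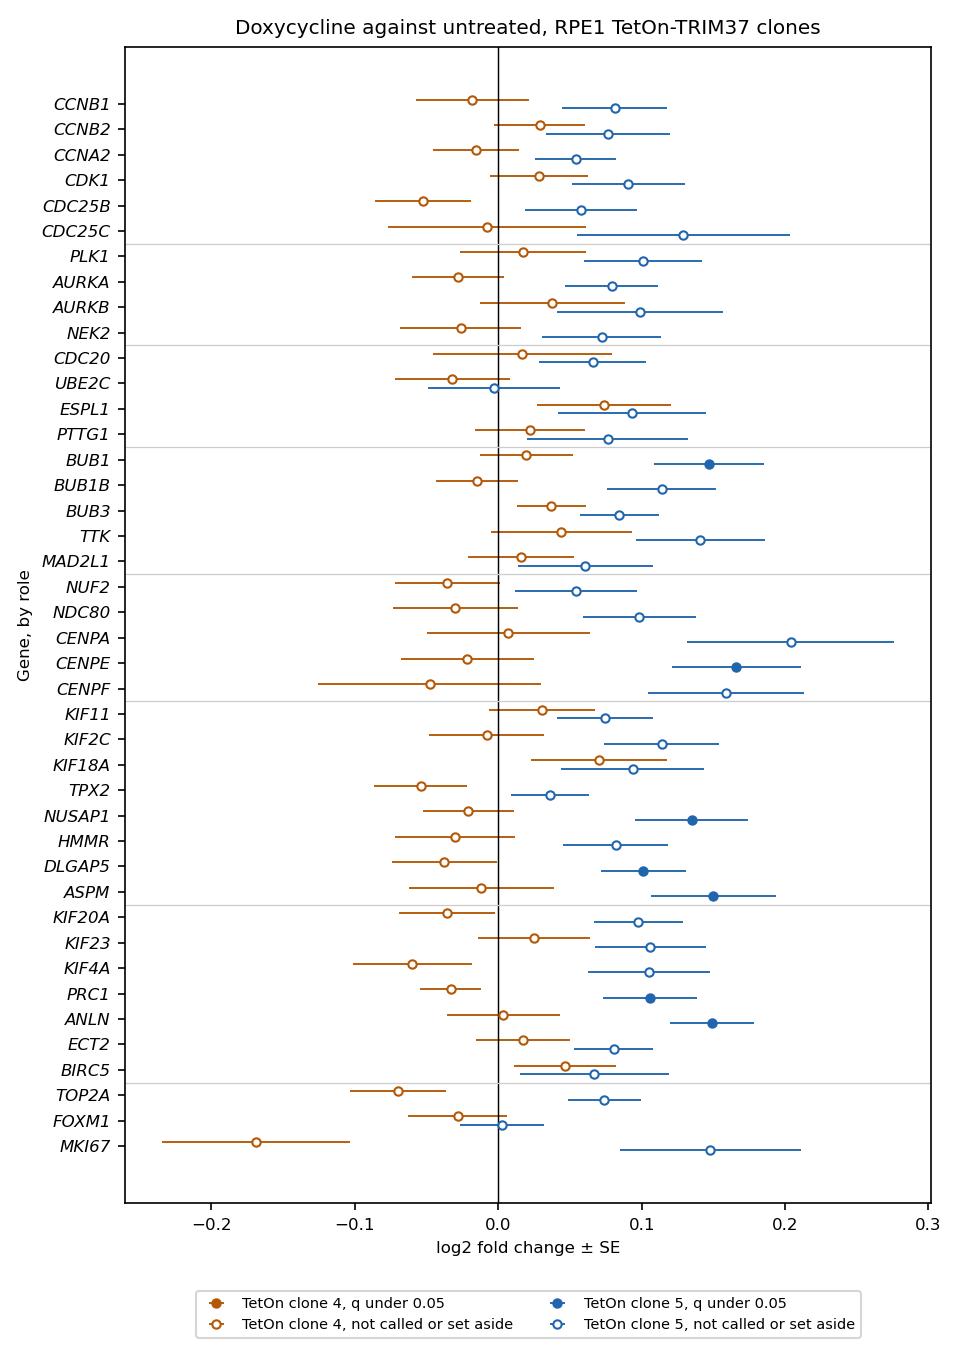
Log2 fold change of each member, doxycycline against untreated, with the SE as bars, in inducible clones 4 and 5 from the authors' deposited tables. Filled points have q under 0.05; the clone 5 points lie to the right of 0 except UBE2C, and the clone 4 points lie on both sides.

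The listed level of FOXM1 was lower in clone 5 than in clone 4. In the authors' deposited tables its mean count was 11700 in clone 4 and 4860 in clone 5, a ratio of 0.415. The other 41 members had ratios from 0.649 for NEK2 to 1.01 for ANLN, with a median of 0.794, and all genes with 100 or more in both had a median of 0.902. The 20 neighbours of FOXM1 had a median ratio of 0.436. The 2 tables were normalised separately, the scaling between them is not given in the sources used here, and no test was made.

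Other genes of the same processes were taken from further lists, to be read against the shares of all usable genes called lower and higher: 9.07% and 9.6% in CHP-134 clone 1, 24.2% and 22% in clone 2, and 26.9% and 26.6% in the RPE1 knockout. Of 35 other kinetochore genes, 10 were called lower and 0 higher in CHP-134 clone 1, 22 lower and 3 higher among 34 usable in clone 2, and 8 lower and 10 higher in the RPE1 knockout (22.9% and 28.6%, near the shares of all genes), in the authors' deposited tables. KNTC1, SPDL1 and CASC5, which act in checkpoint signalling at the outer kinetochore, had the lowest q values in clone 1, at -0.28, -0.28 and -0.26 by the authors' deposited table. In clone 2 SKA1, NSL1 and CENPW had the lowest q values, at -0.48, -0.36 and -0.38 by the authors' deposited table. In the RPE1 knockout SPDL1 was -0.40, SKA3 was 0.25 and KNTC1, on chromosome 12, was 0.53 by the authors' deposited table. CENPT, which links the centromere to the outer kinetochore, was called higher in both inducible clones, at 0.51 (SE 0.0628, q = 2.44e-13) and 0.52 (SE 0.06, q = 2.84e-15) by the authors' deposited tables, and no other gene of the 35 was called there. Its 20 neighbours had medians of -0.035 and -0.0077, and it overlaps THAP11 and NUTF2.

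Condensin and cohesin genes were lower in CHP-134 as well, with 11 of 19 called lower in clone 1 and 12 in clone 2, where 1 was higher, in the authors' deposited tables. By q value STAG2, NCAPG2 and RAD21 came first in clone 1 at -0.24, -0.21 and -0.14, and SMC4, NCAPG and NCAPG2 in clone 2 at -0.85, -0.34 and -0.30 by the authors' deposited tables. SMC4 lies on chromosome 3, as does ECT2, whose neighbours had a median of -0.68 in clone 2. The neighbours of SMC4 were not examined. In the RPE1 knockout 6 of 19 were lower and 3 higher, with NCAPD2, on chromosome 12, at 0.48, RAD21 at 0.42 and SMC3 at -0.18 by the authors' deposited table. NCAPG was the only one called in the inducible clones, at 0.12 in clone 5 by the authors' deposited table. Subunits and regulators of the anaphase-promoting complex gave 3 lower and 0 higher of 16 in clone 1, 6 lower and 2 higher of 15 in clone 2, and 3 lower and 4 higher of 16 in the RPE1 knockout (18.8% and 25%) by the authors' deposited tables. CDC27, FBXO5 and ANAPC1 were the 3 in clone 1, at -0.14, -0.22 and -0.17 by the authors' deposited table. CDC23 was followed in clone 2 by q value by FZR1, the G1 activator of the complex, at 0.47, and ANAPC10 at -0.37 by the authors' deposited table. ANAPC7 and ANAPC5, both on chromosome 12, were 0.63 and 0.61, and CDC16 was -0.16 by the authors' deposited table of the RPE1 knockout.

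Of 43 other G2, spindle and cytokinesis genes, 12 were lower and 0 higher of 42 usable in clone 1, 18 lower and 4 higher of 42 in clone 2, and 7 lower and 20 higher of 41 in the RPE1 knockout by the authors' deposited tables. SPAG5, a spindle protein, was -0.23 in clone 1 and 0.38 in clone 2, with MELK at -0.25 and CKAP2 at -0.17 in clone 1 and UBE2T at -0.73 and PBK at -0.43 in clone 2, in the authors' deposited tables. CDCA3, RACGAP1 and CIT had the lowest q values in the RPE1 knockout, at 0.52, 0.58 and 0.71 by the authors' deposited table, all 3 on chromosome 12. RACGAP1, the GTPase-activating partner of KIF23, and KPNA2 were called higher in inducible clone 5, at 0.13 and 0.073 by the authors' deposited table.

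Of the 12 MuvB, DREAM and B-MYB genes, which regulate the members, 16.7% were called in clone 1, 16.7% in clone 2 and 41.7% in the RPE1 knockout by the authors' deposited tables, against 18.7%, 46.2% and 53.6% of all usable genes. In clone 1 RBBP4 and RBL1 were called lower, at -0.10 and -0.37, and in clone 2 TFDP2 and E2F4 were called higher, at 0.53 and 0.20, out of 12, in the authors' deposited tables. In the RPE1 knockout 3 of 12 were lower and 2 higher, with MYBL2, the B-MYB gene, at -0.39, E2F4 at 0.18 and LIN37 at -0.25 by the authors' deposited table. For DNA replication and E2F target genes, which act before G2, the CHP-134 counts were similar in kind: 16 lower and 0 higher of 40 in clone 1 and 26 lower and 4 higher of 40 in clone 2, in the authors' deposited tables. Their medians were -0.12 and -0.19, against -0.10 and -0.16 for the members. In inducible clone 5 RRM1, a ribonucleotide reductase subunit, was the only one of 42 called, at 0.12 by the authors' deposited table, and their median was 0.028 against 0.092 for the members. The difference between the lists was not tested.

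Across the 5 comparisons, BUB3, KIF4A and HMMR were called in none, nor were CENPF and MKI67 in the CHP-134 clones, the only comparisons in which those 2 were not set aside. KIF4A, a chromosome-arm motor, lay between -0.11 in CHP-134 clone 2 and 0.11 in inducible clone 5 by the authors' deposited tables. HMMR, a spindle-assembly factor, lay between -0.17 in clone 2 and 0.082 in inducible clone 5 by the authors' deposited tables. BUB1 and ANLN were called in 4 of the 5. Between comparisons with no shared libraries, the Spearman correlation of log2 fold changes over 38 members was 0.49 for the RPE1 knockout with CHP-134 clone 2 and 0.12 with clone 1, against 0.041 and 0.044 over all genes. With inducible clone 5 it was -0.32, against -0.050 over all genes. The 2 inducible clones gave 0.20 over 39 members, against 0.19 over all genes. GC content is shared by these points. Its Spearman correlation with the change in the RPE1 knockout was 0.53 over members, against 0.066 over all genes. The GC trend of all genes was weak there, with a median of -0.0215 at the members. With it removed, 20 of the 21 calls of the RPE1 knockout remained. That setting cannot weigh a trend held by the members alone, which was not tested.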

How the data were processed

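RNA-seq libraries were aligned with STAR and compared with DESeq2, per the submitters' processing notes; versions, genome build, annotation, counting rule and strand are details not given in the sources used here. Per the file headers, the authors' deposited tables give each gene's mean count, its log2 fold change with standard error, a q-value and a status. They hold no value for a single library, so depth per library is unknown and no SD, n or left-out replicate could be computed. Genes of status Low or Outlier were not used, except that Outlier genes entered the neighbours' medians and the ratios of mean counts. A call is the authors' q under 0.05. Differences between comparisons used a normal test on the difference of fold changes, the SEs added in quadrature, with Benjamini-Hochberg adjustment over all genes (Python 3.11.15, scipy 1.17.1). It was checked on simulated data with independent normal errors of the listed SEs. That check did not cover shared wild type libraries or SEs that measure technical spread only. Names, positions and promoters came from RefSeq (GRCh38.p14), and GC content from GENCODE transcripts. In each comparison the called members with the largest changes were named, up to 12, with the lowest q of each role, members with opposite or repeated calls or that differed between clones, outliers, members on chromosome 12, and, from the other lists, up to 3 called genes with the lowest q. Members and lists were chosen with earlier results of these data known.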

Additional observations from a re-analysis of the deposited data

Results flagged for a closer look

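The change in expression differed between groups for some members under the same contrast, TRIM37 mutant against wild type, by a normal test of the difference with Benjamini-Hochberg adjustment over all genes. Between the CHP-134 clones 7 of 42 members differed (16.7%, below the 20.5% of all genes). Between the RPE1 knockout and CHP-134, 17 of 38 differed against clone 1 (44.7%, against 34.1% of all genes) and 25 of 38 against clone 2 (65.8%, against 46.5%). The differences of log2 fold changes, clone 2 minus clone 1, were 0.25 for CDC20, 0.65 for CDC25B, 0.28 for PLK1, 0.31 for ESPL1, -0.36 for CDC25C, -0.60 for KIF20A and -0.69 for ECT2.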

How the results depend on the processing

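The alternatives changed 1 setting at a time. Of 106 counts and medians, 86 stayed within 1.5 times the reported count or, for medians, within the median SE of the members, and 20 moved. The rule is loose: a clone 1 median of -0.061 with the nearest genes removed, against -0.10, counts among the 86. So do the counts of inducible clone 4, which were 0 in every setting. With the statistics divided by their central spread, the members called were 2 in the RPE1 knockout, 0 in CHP-134 clone 1, 3 in clone 2 and 3 in inducible clone 5, and the members that differed were 3 between the CHP-134 clones and 2 and 2 for RPE1 against clones 1 and 2. With a minimum absolute log2 fold change of 0.2, the calls were 8 in RPE1, 2 in clone 1 and 0 in inducible clone 5. At q under 0.01 they were 7 in clone 1 and 2 in inducible clone 5, and at q under 0.1 they were 13 in inducible clone 5. With the GC trend removed they were 8 in clone 1, 10 in clone 2 and 4 in inducible clone 5, and the clone 2 median was -0.047. With chromosome medians removed, clone 1 had 9. Settings chosen after seeing the data gave a clone 2 median of -0.063 with the median of the 20 nearest genes removed, and 12 calls in inducible clone 5 among genes whose mean count was 1000 or more. The cause was not tested.

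Single genes reversed in 6 of 875 values. ESPL1 turned to -0.086 in RPE1 with chromosome medians removed and to -0.19 with the nearest genes removed, to -0.014 in clone 2 with the GC trend removed, and to -0.27 for RPE1 minus clone 2 with chromosome medians removed. With the nearest genes removed KIF11 was 0.022 in RPE1 and CDK1 was 0.047 in clone 2. In 229 values the call was lost with the same direction. No paired analysis was possible because the tables hold no values of single libraries. Most member calls in CHP-134 and in inducible clone 5 were lost when the statistics were divided by their central spread over all genes, and depth could not be weighed.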
